A study of Mus musculus with 18 samples.

Results

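The ion channels that carry sodium and calcium into neurons, the HCN channels and the channels that release calcium from internal stores were measured in the hippocampus of socially defeated mice with and without aerobic training. The genes were taken by symbol from the Scn, Cacna1, Cacna2d, Cacnb, Hcn, Ryr and Itpr families, with no use of a measured value. The table held 42 such genes among 57180 gene identifiers, and 38 of them were among the 16738 genes with enough counts to be tested. The 18 libraries each came from the hippocampus of 1 adolescent male mouse of the wild-type C57BL/6J strain, 6 mice per group and all under the same batch label. Mice of the group called CSDS with exercise underwent chronic social defeat stress (CSDS), repeated exposure of an intruder to an aggressive resident mouse, and trained aerobically from a week before the defeat sessions until these ended. CSDS mice were defeated without training, and control mice received no treatment. No defeat-free trained group is among the samples, so training is measured in defeated mice alone. The design asks which hippocampal transcripts follow defeat and which follow training in defeated mice.

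Voltage-gated sodium channels start and carry the action potential. Each has 1 large pore-forming subunit and smaller beta subunits that set its gating and its place in the membrane. Voltage-gated calcium channels turn that signal into calcium entry, which triggers transmitter release and gene transcription. Their pore (Cacna1 genes) is helped to the surface by cytoplasmic beta subunits (Cacnb genes) and by alpha2delta subunits outside the membrane (Cacna2d genes). Some of the alpha2delta subunits are targets of gabapentin. HCN channels open on hyperpolarization and damp the dendritic excitability of hippocampal pyramidal neurons. Ryanodine receptors (Ryr genes) and IP3 receptors (Itpr genes) release calcium from the endoplasmic reticulum, after calcium entry and after receptor signalling.

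The channel paralogs differ in a feature that returns in the values below, the GC content of sequences that encode much the same protein. For Hcn2, Hcn3 and Hcn4 the 60 bases around the selectivity filter are shown, with the 3 codons of its glycine-tyrosine-glycine signature in capitals. They lie in exon 4 of each gene on GRCm38, with Hcn2 at chr10:79728929-79728988 on the plus strand, Hcn3 at chr3:89150985-89151044 on the minus strand and Hcn4 at chr9:58855561-58855620 on the plus strand.

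Hcn2: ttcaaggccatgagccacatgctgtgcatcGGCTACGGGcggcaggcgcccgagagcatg
Hcn3: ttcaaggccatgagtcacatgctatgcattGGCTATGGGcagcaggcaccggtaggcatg
Hcn4: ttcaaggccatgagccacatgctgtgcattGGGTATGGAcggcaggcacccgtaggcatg

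The GC content of this stretch was 65.0% in Hcn2, 55.0% in Hcn3 and 58.33% in Hcn4. Hcn2 and Hcn3 shared 50 of the 60 bases, and 7 of their 10 differences fell on the last base of a codon. Hcn2 and Hcn4 shared 52 bases, with 6 of 8 differences there. At the last codon bases GC was 70.0% in Hcn3 and 75.0% in Hcn4, and in Hcn2 each was G or C.

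Sodium channel pores differ in the same way over the whole transcript, where GC content, as the median over annotated transcripts, was 52.6% for Scn8a and 42.7% to 43.4% for Scn1a, Scn2a and Scn3a. Over the 38 channel genes it ran from 40.2% in Scn7a to 65.2% in Hcn2. Scn3a, Scn2a, Scn1a, Scn9a and Scn7a also lie in 1 region of mouse chromosome 2, with 503331 bases between Scn2a and Scn1a and at most 53144 between the others, from position 65457118 to 66784914 of GRCm38.

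Levels are compared between genes per length, as counts scaled to library size (CPM) per kb of the longest protein-coding transcript. The order therefore depends on the annotated transcript, and long untranslated regions lower a gene's value. Among the 35 channel genes plotted by level, Scn2b, a sodium channel beta subunit, was the highest over all 18 mice at 85.7 ± 6.18 CPM per kb (mean ± SD). Cacnb3 (81.8 ± 20.8), Scn3b (65.7 ± 15.5) and Itpr1 (53.7 ± 10.2), the main neuronal IP3 receptor, came next. In the order of these 35 genes, each overlapped its neighbour in range.

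Among the sodium channel pores, Scn8a, the channel of the mature axon initial segment, stood at 30.4 ± 4.71 CPM per kb and Scn2a, which serves unmyelinated axons, at 28.2 ± 3.57. Scn1a, abundant in fast-spiking interneurons, followed at 11.1 ± 4.18 and Scn3a, best known from the developing brain, at 3.67 ± 0.669. The sodium-sensing relative Scn7a was at 0.342 ± 0.102 and Scn9a of sensory neurons at 0.115 ± 0.0913. Among the calcium channel pores Cacna1e, which carries the R-type current, led with 21.5 ± 4.51, ahead of Cacna1a of the P/Q-type channel with 17.8 ± 5.72. The skeletal muscle pore Cacna1s was the lowest of all tested genes of the families, at 0.108 ± 0.0891.

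Cacna2d3 (26.6 ± 2.80) and Cacna2d1 (19.7 ± 4.68) led the alpha2delta subunits, while Cacna2d4, known from photoreceptors, stood at 0.433 ± 0.275 CPM per kb. Hcn2 (42.1 ± 10.3) exceeded Hcn3 (2.50 ± 0.604) and Hcn4 (0.824 ± 0.882), and took 80.5% ± 5.81 of the summed HCN level in CSDS with exercise, 84.6% ± 2.20 in CSDS and 85.05% ± 2.64 in control mice (SD, n = 6 each). Ryr2, the cardiac and main brain ryanodine receptor, was at 15.2 ± 3.20 CPM per kb, above Ryr3 (2.48 ± 0.730) and the skeletal muscle form Ryr1 (0.647 ± 0.234). Scn4a, Scn10a, Scn11a and Cacna1f, channels of skeletal muscle, pain-sensing neurons and retina, were not tested: they summed to 40, 42, 34 and 55 estimated counts over the 18 libraries.

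**Figure D1:**
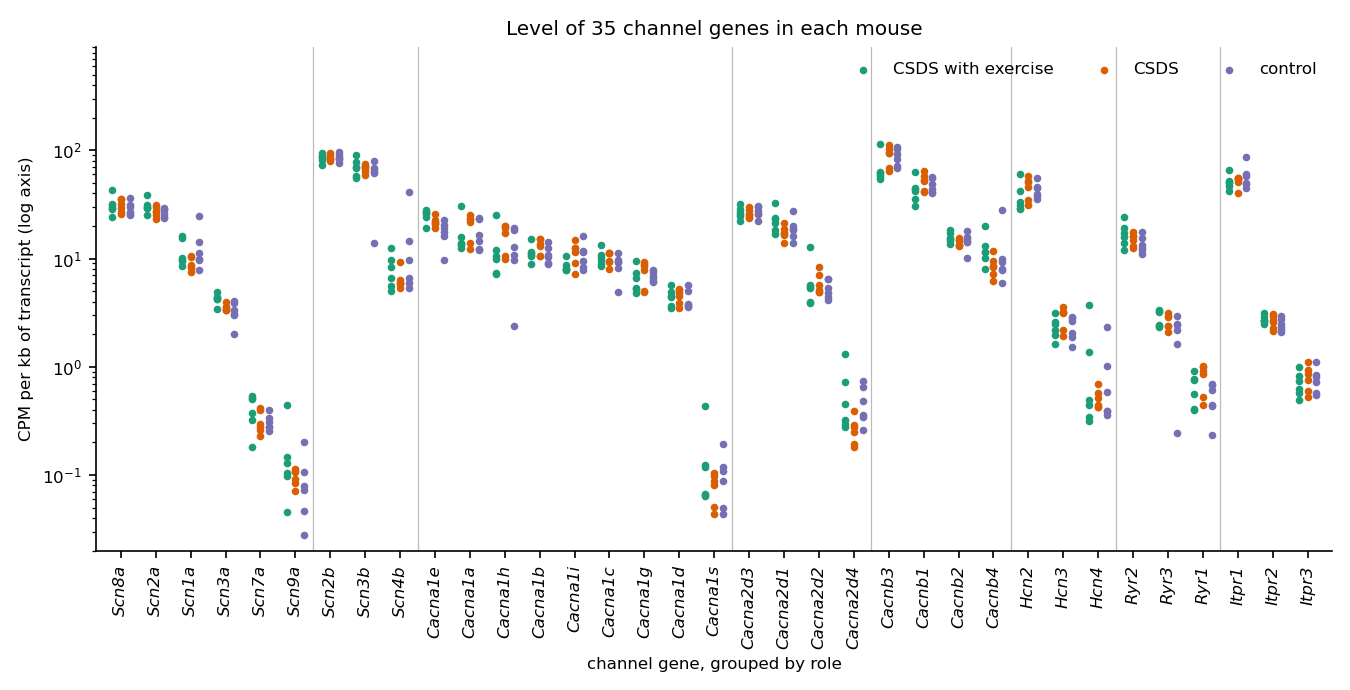
Level of 35 of the tested channel genes in each mouse, in CPM per kb of transcript on a log axis, grouped by role and sorted within it; each point is 1 mouse, with CSDS with exercise, CSDS and control from left to right. Scn2b, Cacnb3 and Scn3b stand highest on average, and single control points lie apart for Scn4b, Scn3b, Cacna1h and Ryr3.

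Total estimated counts ran from 18911080 to 24136591 per library, and mitochondrial genes took 1.71% to 5.10% in exercised, 1.86% to 4.23% in CSDS and 1.79% to 4.44% in control mice. Markers of granule cells, pyramidal cells and interneurons were present in every library. Control replicate 2 stood apart, with 6 neocortical markers summing to 658.5 CPM against 134.4 to 191.1 CPM in each of the 17 remaining ones, and 6 dentate granule cell markers to 150.8 against 332.4 to 632.3 CPM. Another 6 markers, of thalamic neurons, summed to 459.3 and 173 CPM in exercise replicates 6 and 3 and to 417 and 205.4 CPM in control replicates 3 and 1, against 34.1 to 66.1 CPM elsewhere. All 6 CSDS libraries were at or below 66.1 CPM for thalamic and 184 CPM for neocortical markers. Results below are given with all 18 libraries and, where they moved, without these 5, a choice made after the values were seen. Leaving them out kept 3 control, 6 CSDS and 4 exercised mice, so a lost p under 0.05 may also reflect the smaller groups. In pieces of tissue like these, fewer cells of a type and less RNA per cell cannot be told apart.

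Defeat alone gave no channel gene that passed. Between CSDS and control mice edgeR's quasi-likelihood test with Benjamini-Hochberg adjustment over all 16738 genes called 0 of the 38 channel genes (0% of all genes tested). At an unadjusted p under 0.05 there were 5, or 13.2%, against 3.51% of all genes. Of these, 2 were higher (background 1.83%), among them Ryr1, and Scn1a, Scn4b and Cacna2d4 were lower (background 1.68%). DESeq2 called 0 and had the same 5 genes below that level, and limma voom called 0 with 15 below it, as it had 19.5% of all genes. The median log2 fold change of the 38 genes was 0.08 with 26 above 0, against 0.00 for all genes, of which 50% lay above 0. Without the 5 libraries the median was -0.0018 with 19 above 0, and with GC correction as well -0.02 with 15 above 0. No channel gene separated the groups completely, as 0.239% of all genes did.

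Scn4b, the beta subunit linked to resurgent sodium current, lay at 26.7 to 46.2 CPM (median 29.6) in CSDS mice and at 26.5 to 204 CPM (median 40.6) in controls. The groups overlapped, and 1 control mouse, replicate 2, was far above the rest. Its log2 fold change was -1.10 ± 0.41 (SE; unadjusted p = 0.0145, adjusted p = 0.993, edgeR). Without control replicate 2 it was -0.38, and without the 5 libraries above it was 0.11, so that the sign turned. Scn2b, whose gene ends 8325 bases before Scn4b begins on chromosome 9, had a log2 fold change of -0.01 ± 0.08.

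Scn1a ranged over 62.89 to 89.29 CPM (median 71.996) in CSDS mice and over 65.4 to 207 CPM (median 87.9) in controls. Control replicate 2 was again the highest mouse and the other values overlapped. The log2 fold change of -0.52 ± 0.23 (unadjusted p = 0.0357) became -0.23 without control replicate 2 and -0.03 without the 5 libraries. The interneuron markers, to which Scn1a-rich cells belong, summed to 730.7 to 840 CPM in CSDS and 659.9 to 917.5 CPM in control mice, highest in control replicate 2.

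Ryr1 lay at 6.77 to 15.8 CPM (median 13.6) in CSDS mice and at 3.58 to 10.7 CPM (median 8.12) in controls. In 4 CSDS mice it exceeded every control value, while replicates 4 and 5 fell among the controls. Its log2 fold change was 0.62 ± 0.27 (unadjusted p = 0.0350, edgeR). It kept its sign in all 33 alternative settings, with values from 0.38 to 0.78, and without the 5 libraries it was 0.40 and no longer under 0.05 unadjusted. Summed over 8 muscle markers, the level was 18.3 to 23.4 CPM in CSDS and 12.9 to 25.5 CPM in control mice. The 3 of them with enough counts to test had log2 fold changes from -0.33 to 0.44, 2 above 0 and 1 below. Their part in the Ryr1 values was not tested.

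Cacna2d4 lay at 1.045 to 2.283 CPM (median 1.526) in CSDS mice against 1.501 to 4.317 CPM (median 2.445) in controls. Control replicates 3, 4 and 2 were above the highest CSDS mouse and the rest overlapped. A log2 fold change of -0.84 ± 0.37 (unadjusted p = 0.0350, edgeR) was found. Without the 5 libraries it was -0.68, and Cacna2d4 was the only channel gene still under 0.05 unadjusted there, beside 3% of all genes. Cacna1c, whose gene ends 40108 bases before Cacna2d4 begins on chromosome 6, had a log2 fold change of 0.21 ± 0.16. No other calcium channel gene was below 0.05, and 8 of the 9 pores had a log2 fold change above 0, from 0.06 for Cacna1i to 0.40 for Cacna1h, against -0.38 for Cacna1s. Cacna1h was at 0.19 without control replicate 2 and at -0.06 without the 5 libraries, and Cacna1i at -0.11 after GC correction. CA1 pyramidal cell markers summed to 613.5 to 1114 CPM in CSDS and 378.7 to 906.3 CPM in control mice, and their part in these values was not tested.

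The count of 5 moved when single mice were left out. It was 1 without control replicate 2 or CSDS replicate 3, 2 without control replicate 3, and 3 without CSDS replicate 1, 2 or 6. In these fits the share of all genes at that level was 2.38% to 3.02%. The count was 4 without control replicate 1, 4 or 5 or CSDS replicate 5, and 5 without CSDS replicate 4, beside 3.22% to 5.67% of all genes. Without control replicate 6 it rose to 7, beside 4.83%.

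**Figure D2:**
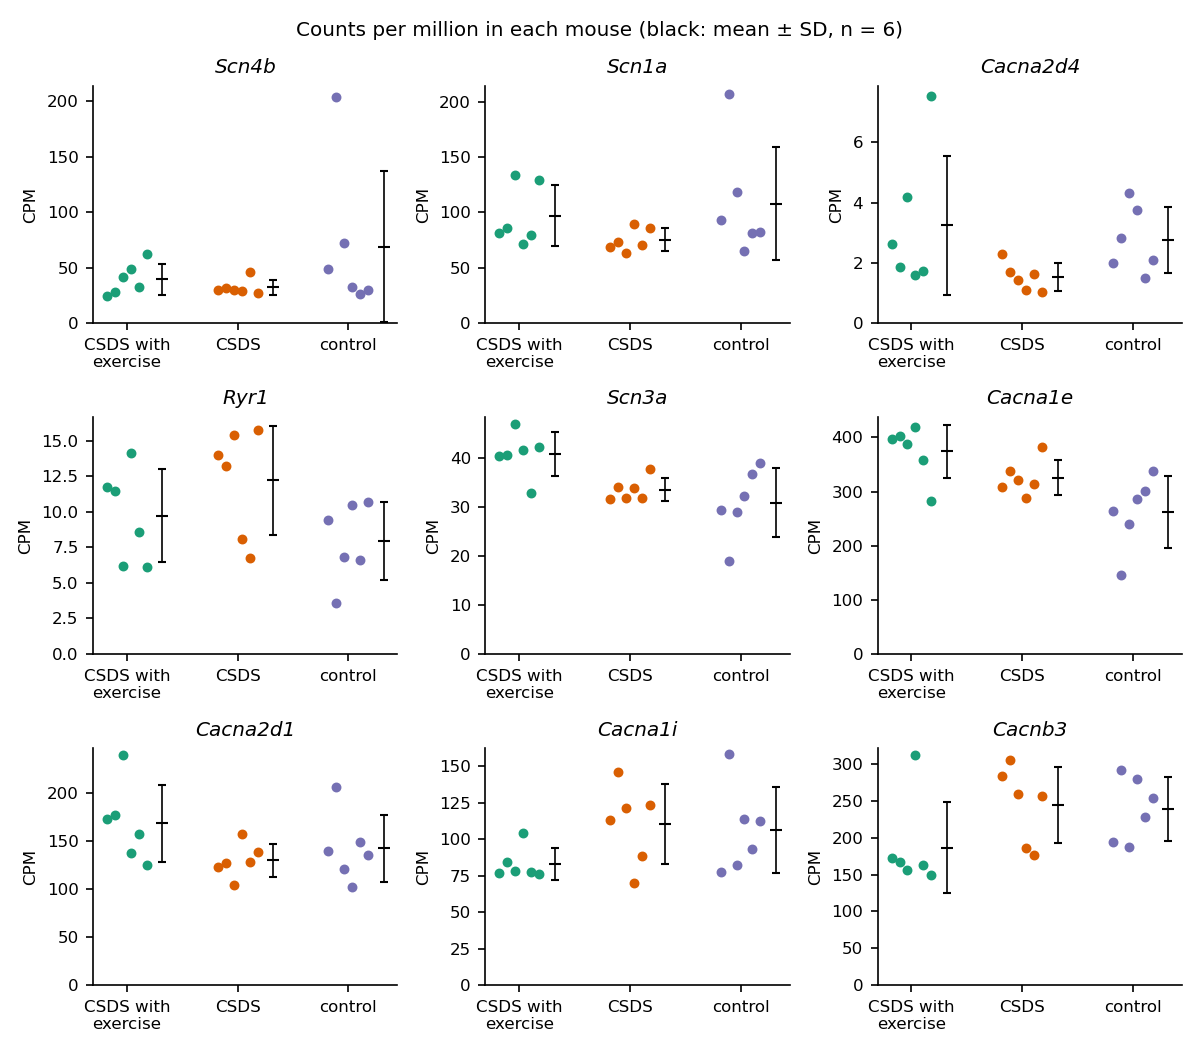
CPM of 9 channel genes in each mouse (points, replicates 1 to 6 from left to right) with the group mean and SD in black, for CSDS with exercise, CSDS and control. Scn4b and Scn1a have their highest value in control replicate 2, Cacna2d4 in exercise replicate 6, and 5 of 6 exercised mice are close together for Cacna1i and Cacnb3 with replicate 4 above them.

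Training in defeated mice gave no channel gene that passed either, but the values were ordered by the base composition of the transcripts. Between CSDS with exercise and CSDS, edgeR's quasi-likelihood test called 0 of 38 channel genes (0% of all genes tested). An unadjusted p under 0.05 was found for 5, or 13.2%, against 15.6% of all genes. Scn3a, Cacna2d1 and Cacna2d4 were higher (background 8.1%), and Cacna1i and Cacnb3 lower (background 7.46%). DESeq2 called 0 channel genes of 156 genes called and limma voom 14 of 5567, which weights down variable libraries. Groups were never fully apart for a channel gene, as they were for 0.89% of all genes. A log2 fold change above 0 was found in 22 of the 38, or 57.9%, against 53.5% of all genes. The smallest adjusted p was 0.220, for Cacna2d4.

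The sodium channel pores were mostly on the higher side in exercised mice, 6 of 7 with a median log2 fold change of 0.28, against 0.02 for all genes. Most of these pores lie below the median GC content of all genes tested. All genes below it had a median of 0.14, with 6566 of 8209 above 0. Scn3a had 32.9 to 46.9 CPM (median 41.0) in exercised mice and 31.7 to 37.8 CPM (median 32.8) in CSDS mice. In 5 exercised mice it exceeded every CSDS mouse, and exercise replicate 5 fell among them. The log2 fold change was 0.28 ± 0.13 (unadjusted p = 0.0413, adjusted p = 0.304, edgeR), and after correction for GC content it was 0.08. The 4 other sodium channel genes of that chromosome 2 region had log2 fold changes of 0.16 (Scn2a), 0.37 (Scn1a), 0.75 (Scn9a) and 0.37 (Scn7a), all AT-rich genes. After GC correction the values were -0.03, 0.16, 0.55 and 0.08 in that order. For Scn8a on chromosome 15 the log2 fold change was 0.03. For the beta subunits Scn2b, Scn3b and Scn4b it lay between -0.01 and 0.30.

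Of the calcium channel pores 6 of 9 were on the lower side. Cacna1i, a T-type pore of burst-firing neurons, lay at 76.2 to 104 CPM (median 78.0) in exercised and at 69.8 to 146 CPM (median 117) in CSDS mice. CSDS replicates 4 and 5 were within or below the exercised range and the other 4 above it. Its log2 fold change was -0.41 ± 0.18 (unadjusted p = 0.0295, adjusted p = 0.280), and -0.02 after GC correction. The related T-type pore Cacna1h had a log2 fold change of -0.43 ± 0.38 and Cacna1a one of -0.26 ± 0.24. In both genes exercise replicate 4 was the highest of all 18 mice, at 208 CPM for Cacna1h and 241 CPM for Cacna1a.

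Cacnb3, the beta subunit with the highest level here, lay at 149 to 313 CPM (median 165) in exercised and at 177 to 305 CPM (median 258) in CSDS mice. The highest value was again that of exercise replicate 4, and the other 5 exercised mice were below all CSDS mice, whose lowest was at 177 CPM. The log2 fold change was -0.39 ± 0.18 (unadjusted p = 0.0465, adjusted p = 0.313). Without exercise replicate 4 it was -0.62 and Cacnb3 was the 1 channel gene called of 38. In that fit 625 genes were called in all, or 3.71% of all genes tested. With the GC correction on all 18 libraries it was -0.13 and no longer under 0.05 unadjusted, and with that correction and without exercise replicate 4 it was -0.26 and not called. Without the 5 libraries it was -0.26. Cacnb4, the most AT-rich beta subunit, had the opposite sign, with a log2 fold change of 0.53 ± 0.31.

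All 4 alpha2delta genes had a log2 fold change above 0, but Cacna2d3 (0.04 ± 0.10) and Cacna2d2 (0.04 ± 0.24) lay near 0. After GC correction the value was -0.09 for Cacna2d3 and 0.19 for Cacna2d2. Cacna2d1, the main gabapentin-binding form, lay at 125 to 240.0 CPM (median 165) in exercised and 104 to 157 CPM (median 128) in CSDS mice. Exercise replicates 3, 2, 1 and 5 were above every CSDS mouse and replicates 4 and 6 among them. Its log2 fold change was 0.37 ± 0.16 (unadjusted p = 0.0315, edgeR). After GC correction it was 0.16, and 0.20 when the 5 libraries were left out as well. The unadjusted p was above 0.05 after GC correction alone and under 0.05 without the 5 libraries, with or without that correction. Cacna2d4 lay at 1.601 to 7.541 CPM (median 2.236) in exercised and 1.045 to 2.283 CPM (median 1.526) in CSDS mice, a log2 fold change of 1.09 ± 0.37 (unadjusted p = 0.00871). Its 2 highest exercised mice, replicates 6 and 3, were the 2 with the high thalamic markers, and without the 5 libraries the value was 0.35 and above 0.05 unadjusted.

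Hcn4, the pacemaker channel of the sinoatrial node and of thalamic neurons, showed the same pair of mice. It lay at 1.92 to 23.0 CPM (median 2.85) in exercised, 2.58 to 4.23 CPM (median 2.91) in CSDS and 2.18 to 14.2 CPM (median 2.99) in control mice. The high values were 23.0 and 8.31 CPM in exercise replicates 6 and 3 and 14.2 and 6.28 CPM in control replicates 3 and 1, the 4 libraries with thalamic sums above 100 CPM, and all other mice were at or below 4.23 CPM. The log2 fold change against CSDS was 1.13 ± 0.59 with all libraries and -0.37 without the 5. How much of it came with thalamic tissue was not tested. Hcn2 (-0.27 ± 0.19) and Hcn3 (-0.30 ± 0.19), both GC-rich, had negative log2 fold changes. For the ryanodine receptors it was 0.18 ± 0.15 in Ryr2, 0.10 ± 0.33 in Ryr3 and -0.33 ± 0.27 in Ryr1, and the 3 IP3 receptors lay between -0.17 and 0.07.

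Limma voom called 14 channel genes here (36.8%, against 33.3% of all genes tested), 4 higher and 10 lower, of which Cacnb3, Hcn2, Cacna1i, Cacna2d1 and Scn7a had the smallest p, and edgeR called none of them. Hcn2 lay at 91.2 to 195 CPM (median 103) in exercised and at 99.4 to 185 CPM (median 155) in CSDS mice. Exercise replicate 4 was the highest of all mice, and its log2 fold change turned positive with the GC correction (0.20, against -0.27 without). Scn7a, a gene with few counts, lay at 1.33 to 3.94 CPM (median 3.21) in exercised and 1.69 to 3.08 CPM (median 2.11) in CSDS mice, with a log2 fold change of 0.37 ± 0.23. Exercise replicate 4 was here the lowest of all mice, and the groups overlapped.

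**Figure D3:**
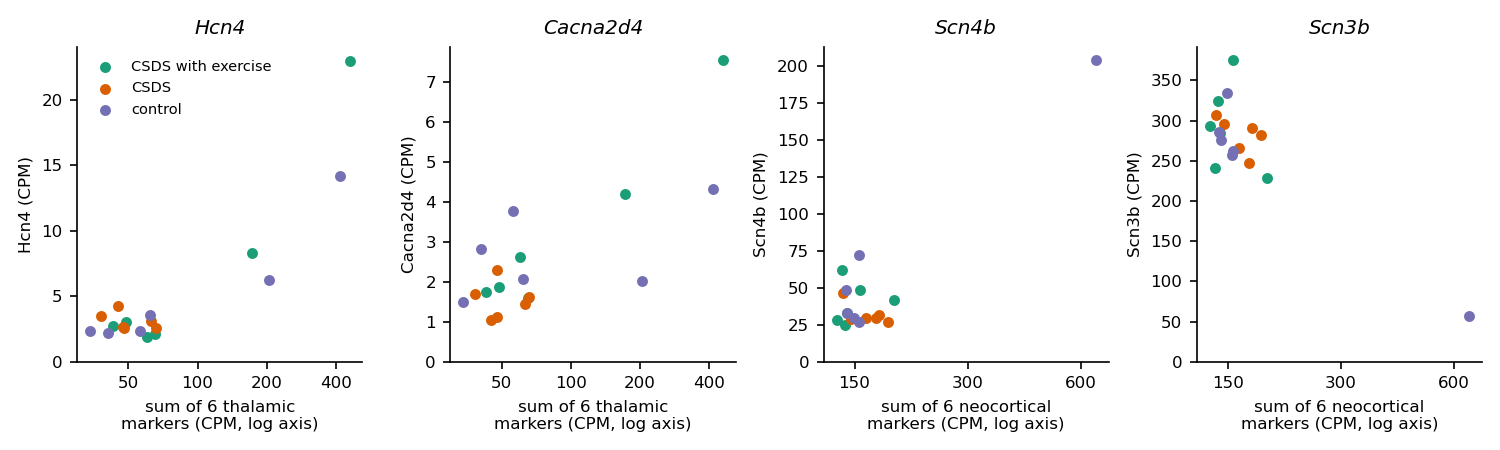
CPM of Hcn4 and Cacna2d4 against the sum of 6 thalamic markers, and of Scn4b and Scn3b against the sum of 6 neocortical markers, in each of the 18 mice (log horizontal axes). The highest Hcn4 values, 23.0 and 14.2 CPM, belong to the mice with the highest thalamic sums, and the mouse with a neocortical sum of 658.5 CPM has the highest Scn4b and the lowest Scn3b.

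Across the 38 genes the Spearman correlation between transcript GC content and the exercise-to-CSDS log2 fold change was -0.70, and across 16421 genes tested with a GC value it was -0.66. Genes of 1 library share its base composition and are not independent, so this describes these libraries. The 17 channel genes below the median GC content of all genes tested (50.55%) had a median of 0.16 with 14 above 0. All such genes had a median of 0.14 with 6566 of 8209 above 0. The 21 above it had a median of -0.19 with 8 above 0, beside -0.12 with 2195 of 8212 above 0 for all such genes. In single mice the slope of gene level on GC content, in log2 units per 10 percentage points, was -0.16 ± 0.21 in exercised, 0.12 ± 0.18 in CSDS and 0.05 ± 0.15 in control mice (SD, n = 6 each). For exercised against CSDS mice the exact two-sided permutation test over 924 regroupings gave p = 0.0238 (0.0714 adjusted over the 3 comparisons). With each library's trend removed, the correlation over the channel genes was -0.06. An unadjusted p under 0.05 was then found for 3 channel genes, beside 5.96% of all genes. These were Cacna2d4 (1.18), Hcn4 (1.41) and Cacna1s (1.02), each highest in exercise replicate 6. Whether the trend arose in the tissue or in the libraries was not tested.

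**Figure D4:**
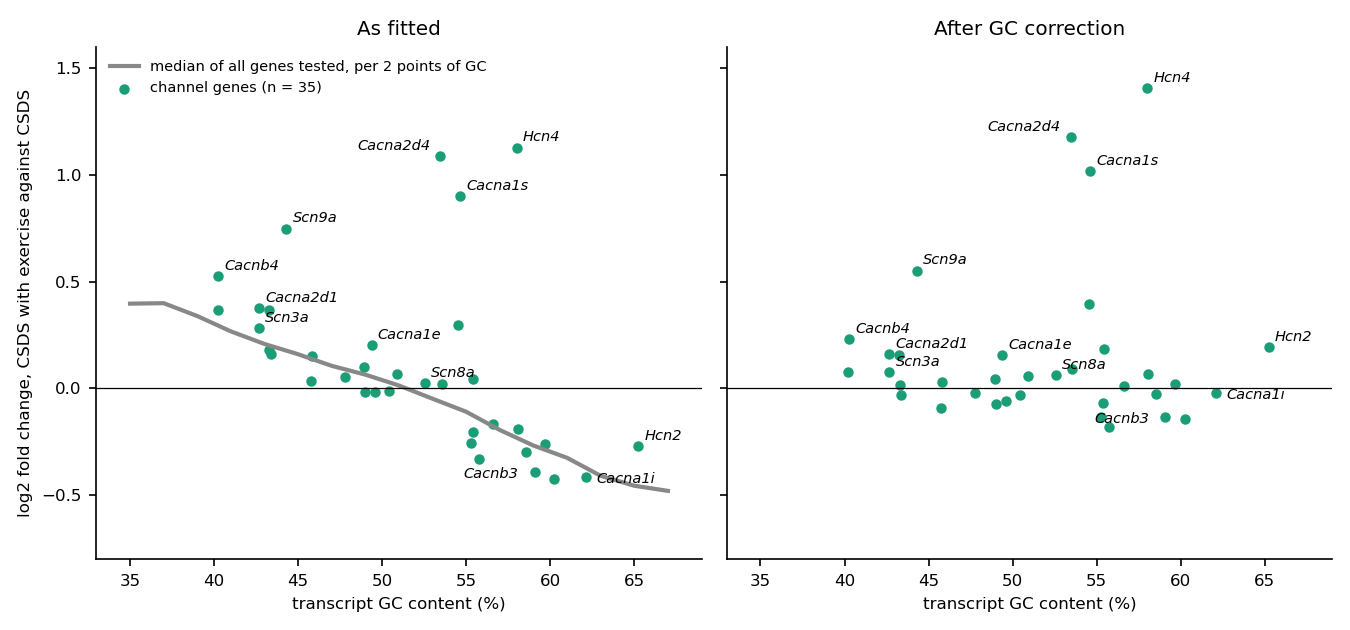
Log2 fold change of CSDS with exercise against CSDS for 35 channel genes (points) against transcript GC content, as fitted (left, with the median of all genes tested as a grey line) and after GC correction (right). On the left the channel genes follow the grey line downwards, with Hcn4, Cacna2d4, Cacna1s and Scn9a well above it, and on the right no slope is seen (Spearman correlation -0.06 over all 38 tested).

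CA1 pyramidal cell markers summed to 375.8 to 833.9 CPM in exercised and 613.5 to 1114 CPM in CSDS mice, with all 5 tested markers on the lower side (median log2 fold change -0.39). Their part in the lower values of GC-rich channel genes was not tested. The count of 5 was 1 without exercise replicate 3 or CSDS replicate 3, 2 without exercise replicate 6 or CSDS replicate 1 or 2, 3 without exercise replicate 1 or 2 or CSDS replicate 6, and 12 without exercise replicate 4. Without exercise replicate 4 the share of all genes at that level rose too, to 26.3%. In the other fits named here it was 9.94% to 12.8%.

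Exercised defeated mice set against controls, which share libraries with the comparisons above, had 0 of 38 channel genes called by edgeR's quasi-likelihood test (0.0179% of all genes tested). At an unadjusted p under 0.05 there were 3, Scn3a, Cacna1e and Ryr2, or 7.89%, against 11.2% of all genes. All 3 were higher, as were 6.8% of all genes at that level, against 4.39% that were lower. DESeq2 called 0 and had Scn3a, Cacna1e and the lower Cacna1i below that level, without Ryr2. The median log2 fold change was 0.11 with 24 genes above 0, against 0.01 for all genes, of which 52% lay above 0. Without the 5 libraries the median was 0.05 with 23 above 0, and with GC correction as well -0.0036 with 19 above 0. No channel gene separated the groups, as 0.562% of all genes did.

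Cacna1e (chr1:154390731-154884501 on the minus strand of GRCm38), whose R-type channels admit calcium into dendritic spines, lay at 283 to 419 CPM (median 393) in exercised, 287 to 382 CPM (median 318) in CSDS and 146 to 338 CPM (median 275) in control mice. In 5 exercised mice, all but replicate 6, it exceeded every control mouse. The log2 fold change against controls was 0.51 ± 0.15 (unadjusted p = 0.00274, adjusted p = 0.226, edgeR). The value of CSDS against control was 0.31 ± 0.15 (unadjusted p = 0.0517, edgeR) and that of exercise against CSDS 0.20 ± 0.15. Over the 33 alternative settings the first ran from 0.07 to 0.39, with an unadjusted p under 0.05 in 8. The second ran from 0.11 to 0.28, with such a p in 3: limma voom and, with and without GC correction, the 5 libraries left out. Against controls it lay between 0.32 and 0.60 in all 33 alternative settings, each with an unadjusted p of 0.00016 to 0.0120, and passed after adjustment in 1 of them, limma voom (adjusted p = 0.0347), which called 1.09% of all genes. It was 0.48 after GC correction, 0.39 without control replicate 2, whose 146 CPM was the lowest of all mice, and 0.35 without the 5 libraries. Within the calcium channel pores Cacna1e took 27.0% ± 3.74 of the summed level per length in exercised, 21.4% ± 3.24 in CSDS and 19.9% ± 3.65 in control mice (SD, n = 6 each). The ranges overlapped, at 20.6% to 30.8%, 18.3% to 25.4% and 13.7% to 23.6% in the same order. These shares were not corrected for GC content, and they also move with the levels of the other pores in the sum.

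Scn3a lay at the exercised values given above and at 19.0 to 39.0 CPM (median 30.8) in controls. The groups overlapped, with control replicates 5 and 6 within the exercised range. Against controls its log2 fold change was 0.40 ± 0.13 (unadjusted p = 0.00614, adjusted p = 0.273), 0.22 after GC correction, and 0.11 without the 5 libraries. Ryr2 lay at 203 to 405 CPM (median 276) in exercised and 184 to 293 CPM (median 219) in control mice, with exercise replicate 4 the highest. Its log2 fold change of 0.32 ± 0.15 (unadjusted p = 0.0470) was 0.17 without that mouse, and 0.19 after GC correction. All 3 ryanodine receptors were on the higher side, with log2 fold changes of 0.51 ± 0.33 for Ryr3 and 0.29 ± 0.27 for Ryr1. For Ryr3, control replicate 2 was at 3.81 CPM against 24.8 to 45.6 CPM in the other controls.

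Cacna1i lay at 77.3 to 158 CPM (median 103) in controls, again above most exercised mice, with a log2 fold change of -0.36 ± 0.18 (unadjusted p = 0.0558). It was -0.21 without control replicate 2, the highest control, and -0.13 after GC correction. Scn4b had a log2 fold change of -0.80 ± 0.41 and Scn1a of -0.15 ± 0.23, both set against a control group that held the high values of replicate 2. Without that mouse the values were -0.08 for Scn4b and 0.14 for Scn1a, and without the 5 libraries 0.18 and 0.06, so that both signs turned. The count of 3 was 2 without exercise replicate 1 or 2 and 4 without control replicate 1 or 5. It was 5 without control replicate 2, 3, 4 or 6, 6 without exercise replicate 6 and 9 without exercise replicate 4. Without exercise replicate 4 the share of all genes at that level was 20.9%. In the other fits named here it was 8.38% to 11.7%.

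Scn8a, Cacna2d3 and Itpr1, each the highest of its role, were not below an unadjusted p of 0.05 in any comparison (edgeR). Scn8a lay at 279 to 492 CPM (median 342) in exercised, 294 to 404 CPM (median 351) in CSDS and 289 to 412 CPM (median 327) in control mice, with log2 fold changes of 0.10 ± 0.13 for exercise against control and 0.07 ± 0.13 for CSDS against control. Cacna2d3 lay at 81.6 to 118 CPM (median 97.2), 87.3 to 110.1 CPM (median 94.2) and 82.2 to 113 CPM (median 98.9) in exercised, CSDS and control mice, and its log2 fold change was -0.01 ± 0.10 for exercise against control and -0.05 ± 0.10 for CSDS against control. In both genes exercise replicate 4 was the highest and exercise replicate 6 the lowest of all 18 mice, so the exercised range covered the other 2 groups. Itpr1 lay at 418 to 646 CPM (median 497) in exercised, 399.9 to 547 CPM (median 536) in CSDS and 447 to 853 CPM (median 529) in control mice. Control replicate 2 was here the highest of all mice, and with it included the log2 fold change of exercise against control was -0.18 ± 0.14.

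**Figure D5:**
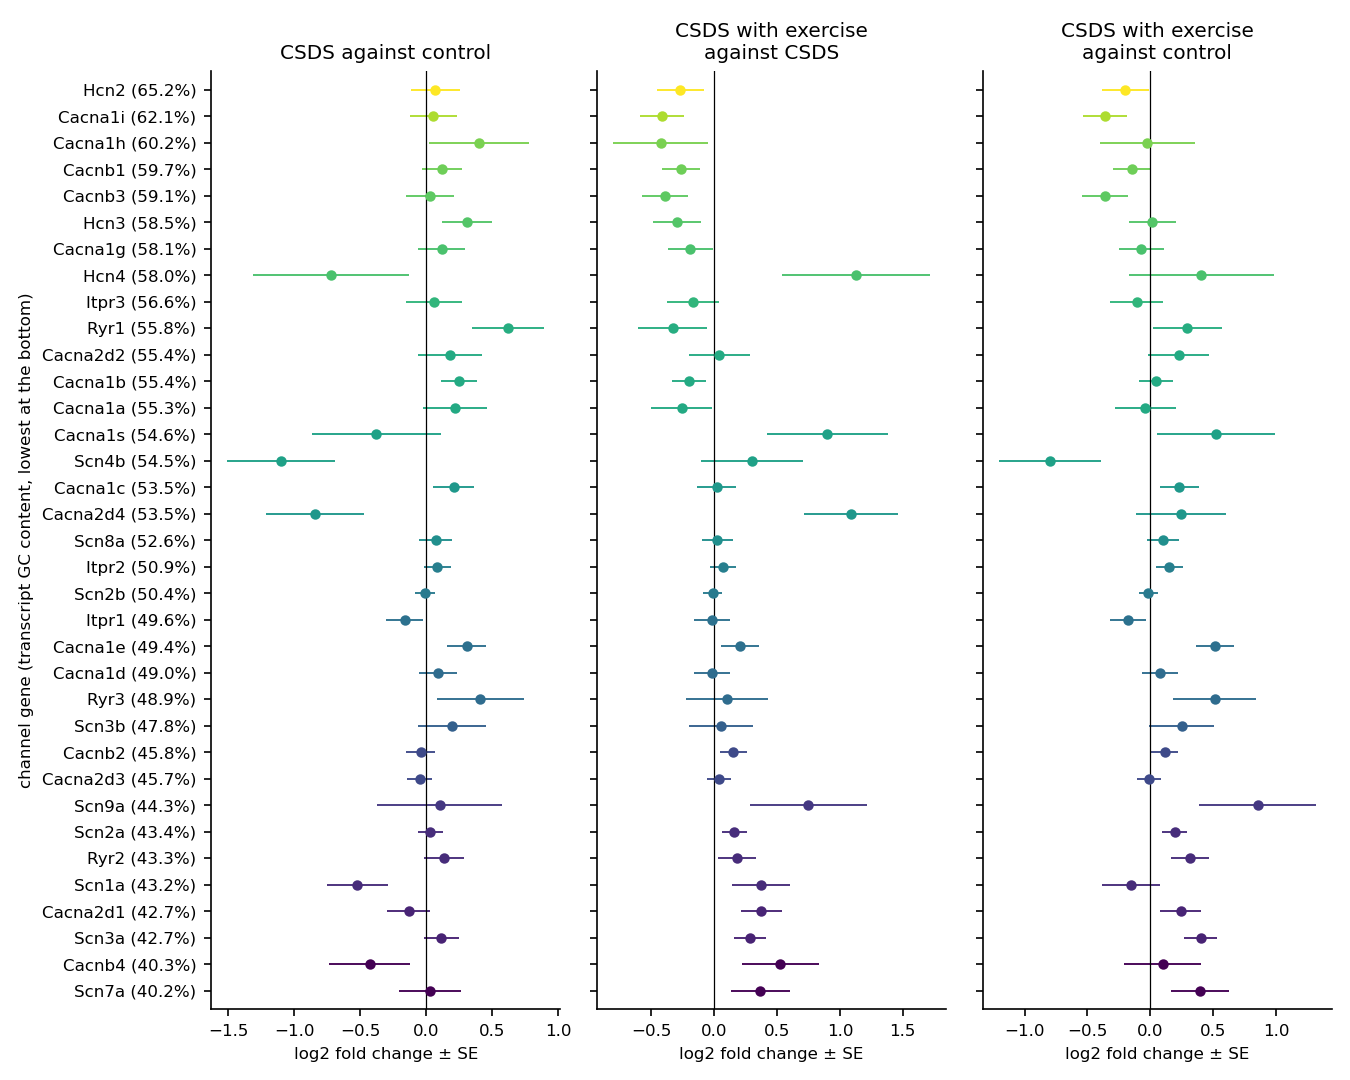
Log2 fold change ± SE of 35 channel genes in the 3 comparisons, sorted and coloured by transcript GC content (percent in brackets), with the lowest at the bottom. In the middle panel AT-rich genes lie right of 0 and GC-rich genes left of it for the most part, with Hcn4, Cacna2d4, Cacna1s and Scn4b furthest right among the GC-rich ones, and Cacna1e lies right of 0 in all 3 panels.

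No gene of the channels' partner proteins passed. The lists held 14 tested sodium channel partners and axon initial segment genes, 22 calcium channel partners, 6 HCN partners, 4 genes of the sodium leak channel and 27 of calcium store filling, release and entry. edgeR's quasi-likelihood test called 0 of these 73 in each of the 3 comparisons. Between CSDS and control mice only Sptbn4, the spectrin that holds sodium channels at the axon initial segment, had an unadjusted p under 0.05 (log2 fold change 0.38 ± 0.17). That level was reached by 3.51% of all genes.

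Between exercised and CSDS mice 11 of these 73 genes were below 0.05 unadjusted, close to the 15.6% of all genes. Of these, 2 were higher (background 8.1%) and 9 lower (background 7.46%). The log2 fold change was -0.60 ± 0.17 for Sptbn4, which has a transcript GC content of 63.2%. For Cbarp, which binds calcium channel beta subunits and lowers channel activity, it was -0.60 ± 0.20, and for Jph4, which ties the plasma membrane to the calcium store, -0.57 ± 0.23. On the higher side were Cntn1 (0.19 ± 0.09), an adhesion protein that binds sodium channel beta subunits, and Nalcn (0.21 ± 0.09), the sodium leak pore, with transcript GC contents of 43.7% and 44.5%. Against controls, exercised mice had 7 such genes of 73, beside 11.2% of all genes. Of these, 4 were higher (background 6.8%) and 3 lower (background 4.39%). Among them were Nalcn and its partner Unc80, with log2 fold changes of 0.23 ± 0.09 and 0.27 ± 0.10.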

How the data were processed

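RNA of 18 hippocampi was sequenced after poly(A) enrichment in stranded libraries, per the labels' protocols, with an integrity number of at least 7 required of each sample. A single table of expected counts per gene, not normalized, was deposited. The submitters' processing notes name fastp, HISAT2, RSEM and GRCm38 (mm10); versions, annotation release and strand setting were not found in the labels or files, so reads of overlapping or antisense genes and of close paralogs are uncertain.

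Estimated counts were rounded to whole numbers (22.7% of nonzero values were not whole) and tested with edgeR 4.0.16 in R 4.3.3: filterByExpr (minimum count 10, minimum total 15), TMM scaling, and the quasi-likelihood F test on all 18 libraries with 1 term per group. P-values were adjusted by Benjamini-Hochberg over 16738 genes, with a threshold of 0.05. The SE is the log2 fold change divided by the root of F. The GC correction entered each library's smoothed trend on transcript GC content as an offset, with GC values for 98.1% of tested genes. Transcript lengths, coordinates and sequences are those of GENCODE M21 on GRCm38, matched by gene identifier. No 2 replicates agreed within sampling noise (chi-square of 9.67 to 163 per gene over 45 pairs).

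Values per mouse are given for the 4 channel genes with the smallest p in each comparison, up to 6 called under DESeq2 1.42.0, voom (limma 3.58.1) or a left-out library, and the highest gene per length of each role; Hcn4, Cacna1h, Cacna1a, Scn3b and Ryr3 were added after their values were seen. Some genes and sequences are not reported here. The channel genes, partner and marker lists were chosen with earlier results of these data known. Alternatives were those tools, other scaling, filters and covariates (sva 3.50.0), the GC correction, each library left out and, added after seeing the data, 5 libraries left out.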

Additional observations from a re-analysis of the deposited data

Results flagged for a closer look

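Among 105 groups of 6 mice (35 channel genes in 3 groups), 16 held a mouse whose gap to its nearest neighbour exceeded Dixon's 95% limit for 6 values, a share of the group's range. Chance alone gives about 1 in 20 such groups if values are normal and independent, whereas these genes share the same 18 libraries. The share over all genes was not counted, so the 16 cannot be read as particular to channel genes. All but 2 of the 16 came from 4 libraries, and no cause was tested.

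Control replicate 2, the library with a neocortical marker sum of 658.5 CPM, was high for Scn1a (207 CPM), Scn4b (204 CPM), Cacnb4 (232 CPM) and Itpr1 (853 CPM), and low for Scn3b (57.4 CPM against 257.7 CPM in the next control). These are 5 of the 35 channel genes. The 4 high genes also had their highest value of all 18 mice there, and Scn3b its lowest.

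Exercise replicate 6, with a thalamic marker sum of 459.3 CPM, was high for Hcn4 (23.0 CPM), Cacna2d2 (73.8 CPM), Scn9a (4.38 CPM) and Cacna1s (2.70 CPM). Control replicate 3, with a sum of 417 CPM, was high for Hcn4 (14.2 CPM). Exercise replicate 4, the exercised mouse with a positive GC slope (0.19 log2 units per 10 percentage points) and with the highest dentate granule cell marker sum of all libraries (632.3 CPM), was high for Cacna1a (241 CPM), Cacna1h (208 CPM), Cacna1i (104 CPM) and Cacnb3 (313 CPM), which have transcript GC contents of 55.3% to 62.1%. The last 2 were CSDS replicate 5, high for Scn4b (46.2 CPM against 31.4 CPM in the next mouse), and CSDS replicate 4, low for Itpr1 (399.9 CPM against 502 CPM).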

How the results depend on the processing

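Leaving out single libraries moved the number of channel genes at an unadjusted p under 0.05 between 1 and 7 in CSDS against control, 1 and 12 in exercise against CSDS and 2 and 9 in exercise against control. The share of all genes at that level ran from 2.38% to 5.67%, 9.94% to 26.3% and 8.01% to 20.9% in the same order. The number of channel genes called moved from 0 to 1 in exercise against CSDS and was 0 to 0 in the other comparisons. The 1 call came without exercise replicate 4, where 3.71% of all genes were called. Limma voom had 15, 20 and 11 channel genes at an unadjusted p under 0.05 in these comparisons, beside 19.5%, 44.6% and 19.2% of all genes. It called 0, 14 and 1, beside 0%, 33.3% and 1.09%. With the GC correction 6, 3 and 1 had such a p, beside 4.13%, 5.96% and 7.44% of all genes. In exercise against control the count was 5 with plain library size or no filter, beside 11.3% and 9.01% of all genes. With 1 surrogate variable it was 10 there, beside 13.8%. With the 5 libraries left out the counts were 1, 6 and 3, beside 3%, 10.8% and 10.6% of all genes. With the GC correction as well they were 1, 3 and 3, beside 4.17%, 8.68% and 11.5%. GC correction without control replicate 2 left 1 in CSDS against control, beside 2.95% of all genes.

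Sign changes are listed here for the 4 channel genes with the smallest p in each comparison. Other channel genes turned too, among them Hcn2 in exercise against CSDS, in 5 of 33 alternative settings. The sign of the log2 fold change turned for Scn4b in CSDS against control without the 5 libraries (0.11, and 0.12 with GC correction). For Scn3a in exercise against control it turned without them and with GC correction (-0.0267). It also turned for Scn3a in exercise against CSDS (-0.0029) and Ryr2 in exercise against control (-0.0205) with GC correction and without exercise replicate 4, and for Cacna1i in exercise against control with GC correction and without control replicate 2 (0.0523). The cause was not tested.

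Samples that share a replicate number were not paired: the correlations of their deviations ran from -0.47 to 0.09, -0.31 to -0.09 and -0.26 to 0.25 in the 3 comparisons, and 1 of these 18 pairs correlated best with its own number. With the number as a block, 2, 3 and 2 channel genes had an unadjusted p under 0.05, beside 2.24%, 11.4% and 8.29% of all genes. With the GC correction as well the counts were 3, 1 and 1, beside 2.77%, 4.47% and 5.82%. None was called. Low counts limit Cacna1s, Scn9a, Scn7a and Cacna2d4, with 262 to 971 estimated counts over all libraries.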
